A study of Mus musculus with 6 samples.

Results

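Matrix metalloproteinases (MMPs), their tissue inhibitors (TIMPs) and the ADAMTS proteases were examined in cultured mouse muscle-derived stem cells (MDSC) and embryonic stem cells (ESC). Members were defined by gene symbol: every numbered Mmp, Timp or Adamts gene reached through the accession of an array probe. The set was chosen with earlier results of these data known. A reference gene table held 46 such genes. Of these, 45 had a probe among the 37153 genes and unnamed features of the array, and Mmp27 had none. They comprised 22 MMP, 4 TIMP and 19 ADAMTS genes, read by 59 probes, with more than 1 probe for 14 genes.

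RNA came from 3 groups of 2 one-colour arrays each. Mstn-null MDSC and wild-type (WT) MDSC were the slowest adhering fraction of hindlimb muscle cells from male mice aged 5 weeks. Each MDSC array was a separate isolation at passage 1, and the number of mice behind an isolation is not given in the sources used here. The third group was W4, an established male mouse ESC line, at passage 12 (replicate 1) and passage 15 (replicate 2). Its arrays are therefore passages of 1 line. The ESC had been grown on mouse embryonic fibroblast feeders, which a short plating step on gelatin was meant to remove, although the sample description calls the colonies feeder free. No group was treated. The stated purpose was to define the potency of MDSC by gene expression.

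MMPs are zinc-dependent proteases that cut collagens, gelatin, elastin, laminin and other matrix proteins. Most are made as inactive precursors, and TIMPs block the active enzymes by occupying the catalytic zinc. The ADAMTS proteases are secreted relatives that process procollagens, cut large proteoglycans such as aggrecan and versican, or act on microfibrils. In muscle these enzymes are known for the turnover of basement membrane and connective tissue during growth and regeneration. RNA levels as measured here do not give the activity of the enzymes.

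Values are log2 signals relative to the 75th percentile of the same array, so they compare arrays for 1 probe and not genes with each other. Between 53.3% and 64.6% of the 59305 non-control spots of an array were well above background, and the number of arrays limits the precision. Pluripotency markers fitted the ESC label, with 7 of 8 called lower in MDSC. The exception was Nanog, whose probe was higher in MDSC by 0.56 ± 0.13 (SE, adjusted p = 0.0185). The mean level of 10 fibroblast markers was 6.17 and 6.40 in Mstn-null MDSC, 6.16 and 5.15 in WT MDSC, and 2.20 and -0.32 in ESC, so ESC replicate 1 stood above ESC replicate 2. The mean of 10 differentiated muscle markers was -0.59 and -0.87 in Mstn-null MDSC, 2.98 and -0.42 in WT MDSC, and -2.04 and -1.90 in ESC, so WT replicate 1 stood apart. The probe of Mstn itself read -3.06 and -2.47 in the cells labelled Mstn-null, -4.90 and -6.71 in WT MDSC, and -7.23 and -6.85 in ESC. It rose clear of background in the cells labelled Mstn-null alone, which goes against the label unless it lies outside the deleted part. That position is not given in the sources used here, so the groups are called by their labels and each genotype difference rests on them. Both WT arrays lay on a slide of their own, so slide and WT genotype cannot be told apart in Mstn-null versus WT MDSC. Nor can slide and cell type be told apart in WT MDSC versus ESC, and MDSC versus ESC is affected in part. The Mstn-null and ESC arrays shared slide 2, so a result on slide 2 alone compares Mstn-null MDSC with ESC and leaves out WT MDSC.

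In the reference assembly GRCm38.p6, 10 Mmp genes are direct neighbours on mouse chromosome 9, between Dcun1d5 and Tmem123. Their order is Mmp13, Mmp12, Mmp1b, Mmp3, Mmp1a, Mmp10, Mmp8, Mmp27, Mmp20 and Mmp7. Promoters of all 10 were in the RefSeq promoter table (250 bases before to 50 bases after the start). They were searched on both strands for TGACTCA and its reverse complement TGAGTCA, the letters bound by the transcription factor AP-1, a known regulator of collagenase and stromelysin genes. The letters were found in 7 of the 32 members with a promoter in the table (21.9%), against 5.95% of the 27025 genes of the table. All 7 members lay in the run of neighbours, and none of the 22 members with a promoter elsewhere held the letters. The 100 bases before the start are shown 5′ to 3′ for these 7 genes because they share this element, which is in capitals. Mmp1a and Mmp1b are also much alike over the rest of the stretch.
Mmp13, chr9:7272414-7272513, GRCm38.p6, plus strand: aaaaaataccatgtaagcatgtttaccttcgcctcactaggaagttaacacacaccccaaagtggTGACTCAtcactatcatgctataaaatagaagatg
Mmp12, chr9:7347274-7347373, GRCm38.p6, plus strand: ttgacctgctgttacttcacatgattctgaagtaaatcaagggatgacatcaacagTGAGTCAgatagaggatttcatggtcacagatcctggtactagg
Mmp1b, chr9:7388027-7388126, GRCm38.p6, minus strand: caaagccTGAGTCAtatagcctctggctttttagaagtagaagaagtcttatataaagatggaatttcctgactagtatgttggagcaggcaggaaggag
Mmp3, chr9:7445722-7445821, GRCm38.p6, plus strand: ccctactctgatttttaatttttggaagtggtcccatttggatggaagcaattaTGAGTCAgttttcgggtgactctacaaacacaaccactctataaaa
Mmp1a, chr9:7464041-7464140, GRCm38.p6, plus strand: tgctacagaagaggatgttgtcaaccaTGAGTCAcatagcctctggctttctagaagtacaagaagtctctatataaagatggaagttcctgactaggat
Mmp10, chr9:7502242-7502341, GRCm38.p6, plus strand: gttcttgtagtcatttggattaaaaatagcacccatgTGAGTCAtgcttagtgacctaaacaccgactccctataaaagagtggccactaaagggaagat
Mmp7, chr9:7691990-7692089, GRCm38.p6, plus strand: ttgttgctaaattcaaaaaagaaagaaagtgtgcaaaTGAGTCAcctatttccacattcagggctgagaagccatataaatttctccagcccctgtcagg

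The element began 35 bases before the start in Mmp13, 44 in Mmp12, 46 in Mmp3, 63 in Mmp10 and Mmp7, 73 in Mmp1a and 93 in Mmp1b. In Mmp12 and Mmp7 it was in 1 of 2 listed promoters. The letters were in 2 of the 14 members with a promoter in the table that were called higher in MDSC than in ESC, namely Mmp12 and Mmp13. A match of letters is a description and does not show that the factor was bound there.

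MDSC of both genotypes together were first set against ESC. The 3 group means were fitted with limma, and a gene was called at a Benjamini-Hochberg adjusted p below 0.05 over all genes tested. Of the 45 members with a probe, 35 were tested, since in at least 1 group both arrays were well above background. MDSC were higher than ESC in 21 of the 35 and lower in 2, while 12 did not pass. Over all 25055 genes and features tested, 28.3% were called higher and 31.4% lower. The median difference, MDSC minus ESC, was 1.82 over the members and -0.03 over all genes tested. The higher members comprised 3 of 4 TIMP, 8 of 15 MMP and 10 of 16 ADAMTS genes tested. Arrays of the MDSC and ESC did not overlap for 23 members that were higher in MDSC and 2 that were lower, against 33% and 36.1% of all genes tested. In bulk RNA, fewer cells of a type and less RNA per cell cannot be told apart.

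**Figure D1:**
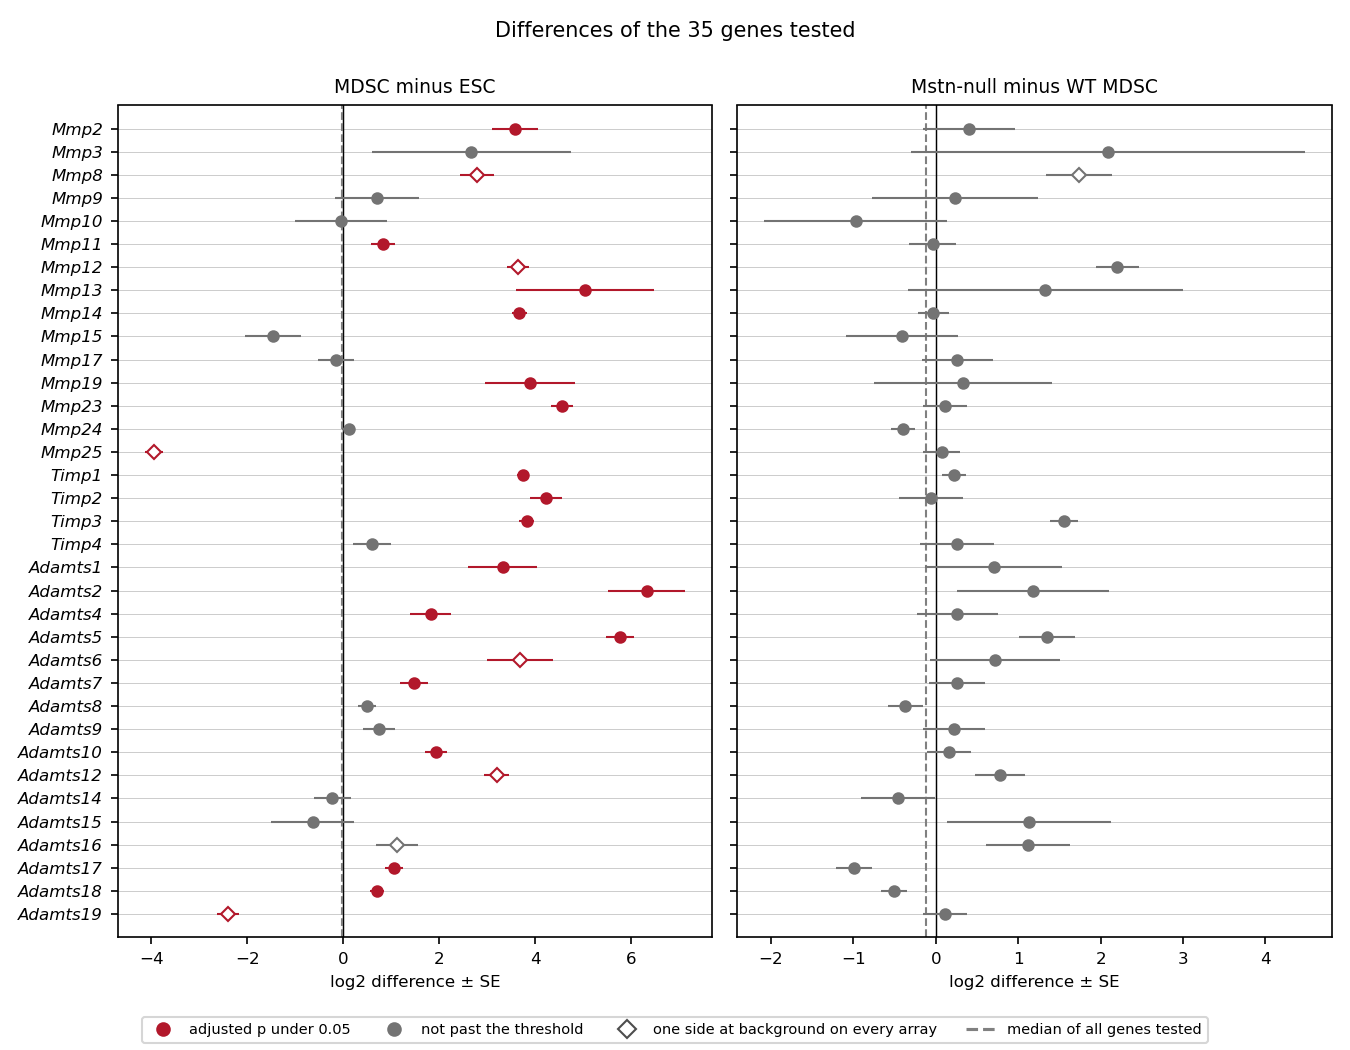
Log2 difference ± SE of the 35 members tested, for MDSC minus ESC on the left and Mstn-null minus WT MDSC on the right; red marks an adjusted p under 0.05, an open diamond a gene for which one side never rose well above background, and the dashed line the median of all genes tested. On the left 23 genes are red, 21 above and 2 below zero, and on the right none is. Mmp25 and Adamts19 rose well above background in neither genotype and are drawn as filled circles on the right.

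The inhibitors Timp1, Timp2 and Timp3 were each higher in MDSC than in ESC, and Timp4 was not called. Timp1, a secreted inhibitor of many MMPs, had levels of 8.36 and 8.26 in Mstn-null MDSC, 8.07 and 8.12 in WT MDSC, and 4.50 and 4.43 in ESC. All 4 MDSC arrays lay within 0.29 of each other, and MDSC were higher by 3.74 ± 0.13 (SE, adjusted p = 0.00013). Timp2, which inhibits MMPs and also helps MMP14 to activate the precursor of MMP2, had levels of 8.67 and 9.04 in Mstn-null MDSC, 8.77 and 9.06 in WT MDSC, and 5.19 and 4.14 in ESC. Its difference was 4.22 ± 0.34 (adjusted p = 0.000821), and a separate Timp2 probe also gave 4.22. The genotypes overlapped for Timp2, and both stood above both ESC arrays.

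Timp3 stays bound to the matrix and inhibits ADAM and ADAMTS proteases as well as MMPs. Its levels were 6.32 and 6.51 in Mstn-null MDSC, 4.86 and 4.85 in WT MDSC, and 1.70 and 1.93 in ESC. The 3 groups formed 3 separate steps, and MDSC were higher than ESC by 3.82 ± 0.15 (adjusted p = 0.000172). Timp4, the remaining inhibitor, read -3.50 and -2.34 in Mstn-null MDSC, -3.45 and -2.90 in WT MDSC, and -3.45 and -3.85 in ESC. These groups overlapped, with a difference of 0.60 ± 0.39 (adjusted p = 0.228).

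**Figure D2:**
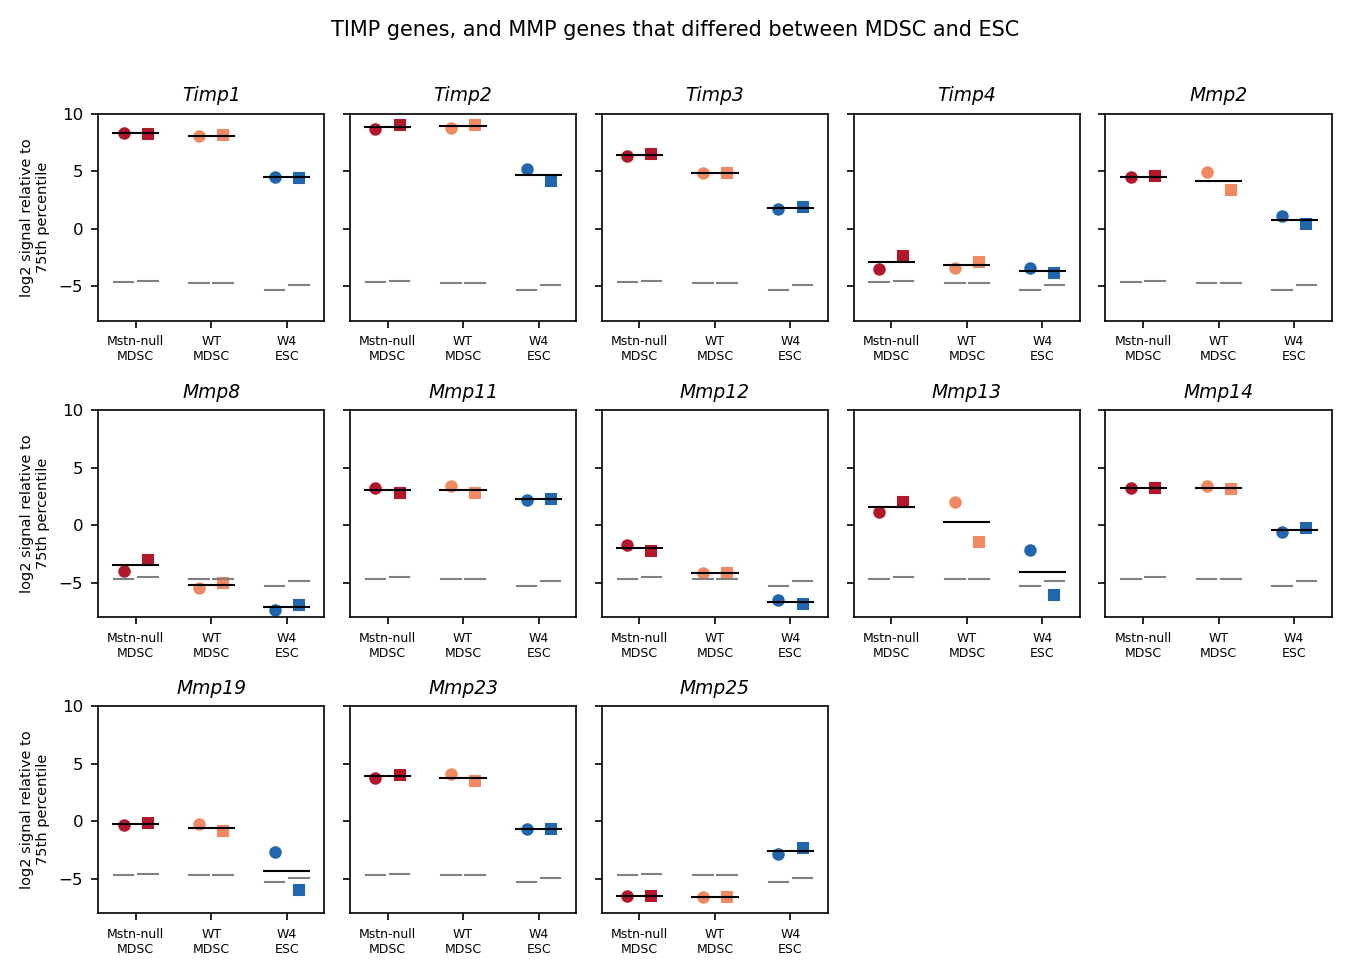
Log2 level of each TIMP gene and of each MMP gene called in MDSC versus ESC, on the Mstn-null, WT and ESC arrays; circles are replicate 1, squares replicate 2, black lines group means, and grey lines the lowest signal well above background on that array. Timp1, Mmp14 and Mmp23 sit well above ESC with little spread, Mmp13 and Mmp19 spread widely between the ESC arrays, and Mmp25 lies above the grey lines in ESC alone.

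Among membrane-bound MMPs, Mmp14 and Mmp23 were higher in MDSC and Mmp25 was lower. Mmp14 is a transmembrane protease that cuts fibrillar collagen and activates MMP2. Its levels were 3.23 and 3.21 in Mstn-null MDSC, 3.37 and 3.14 in WT MDSC, and -0.57 and -0.30 in ESC. The MDSC arrays spanned only 0.23, and MDSC were higher by 3.67 ± 0.16 (adjusted p = 0.000207). Mmp23 lacks the usual cysteine switch and is anchored to the membrane by its N-terminal part. It read 3.76 and 4.04 in Mstn-null MDSC, 4.12 and 3.47 in WT MDSC, and -0.69 and -0.70 in ESC, a difference of 4.55 ± 0.23 (adjusted p = 0.000286). Mmp25, a protease held by a lipid anchor and known from leukocytes, was well above background in ESC alone. Its probe read -6.53 and -6.46 in Mstn-null MDSC, -6.57 and -6.57 in WT MDSC, and -2.84 and -2.33 in ESC. It was at least 4.19-fold lower in MDSC (adjusted p = 0.000259). Such bounds set the bright group's mean against the dim group's mean of, on each array, the higher of the probe's own signal and the lowest signal well above background. They hold for the processed intensities used here. With normexp background correction some fitted differences fell short of them, at 1.15 for Mmp12, -1.18 for Mmp25 and 1.00 for Adamts6 on the log2 scale, and likewise for Adamts12. The other tested membrane MMPs, Mmp15, Mmp17 and Mmp24, did not pass, with differences of -1.46, -0.15 and 0.11.

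Of the gelatinases, which cut denatured collagen, Mmp2 was higher in MDSC and Mmp9 was not called. Mmp2 had levels of 4.52 and 4.57 in Mstn-null MDSC, 4.92 and 3.37 in WT MDSC, and 1.13 and 0.42 in ESC. The genotypes overlapped and both stood above ESC, with a difference of 3.57 ± 0.48 (adjusted p = 0.00326). Mmp9 read -2.21 and -4.06 in Mstn-null MDSC, -3.95 and -2.80 in WT MDSC, and -5.11 and -2.81 in ESC. All groups overlapped (0.70 ± 0.87, adjusted p = 0.515). The Mmp9 probe was printed on 10 spots per array, whose SD within an array was at most 0.35, so its arrays differed by more than the spots did.

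Collagenase 3, the product of Mmp13, cuts fibrillar collagen. Its probe read 1.14 and 2.02 in Mstn-null MDSC, 1.98 and -1.48 in WT MDSC, and -2.18 and -6.04 in ESC. Both the WT and the ESC arrays were far apart, and MDSC were higher by 5.03 ± 1.44 (adjusted p = 0.0327). That call was lost in 4 of the fits that left out 1 array, with adjusted p between 0.0601 and 0.156. The difference was 6.96 without ESC replicate 1, 3.10 without ESC replicate 2, 4.16 without WT replicate 1 and 5.89 without WT replicate 2. Mmp19, a soluble MMP known to cut basement membrane proteins, read -0.29 and -0.18 in Mstn-null MDSC, -0.25 and -0.87 in WT MDSC, and -2.63 and -5.95 in ESC. MDSC lay close together and above both ESC arrays, by 3.89 ± 0.93 (adjusted p = 0.0189), but the call was lost without WT replicate 1 (adjusted p = 0.0516) and on slide 2 alone (adjusted p = 0.05). Leaving out ESC replicate 1 gave a Mmp19 difference of 5.55, and leaving out ESC replicate 2 gave 2.23. Neither Mmp13 nor Mmp19 was well above background on ESC replicate 2, so background limits the size of both differences. Mmp11, stromelysin 3, which is activated inside the cell by furin, showed the smallest fitted difference among the MMPs called higher. Its levels were 3.25 and 2.81 in Mstn-null MDSC, 3.37 and 2.76 in WT MDSC, and 2.15 and 2.29 in ESC (0.83 ± 0.25, adjusted p = 0.0358). A separate Mmp11 probe gave 0.74 and did not pass (adjusted p = 0.0636), and 4 of the fits that left out 1 array lost the call.

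Mmp12 and Mmp8 are known mainly from macrophages and neutrophils. Mmp12, macrophage elastase, read -1.70 and -2.25 in Mstn-null MDSC, -4.13 and -4.21 in WT MDSC, and -6.50 and -6.90 in ESC. It was not well above background on either ESC array and was at least 4.05-fold higher in MDSC (adjusted p = 0.000458). A further Mmp12 probe never rose well above background. Mmp8, neutrophil collagenase, read -4.02 and -3.01 in Mstn-null MDSC, -5.50 and -5.00 in WT MDSC, and -7.36 and -6.97 in ESC. Only the Mstn-null arrays were well above background, and Mstn-null MDSC were at least 2.98-fold higher than ESC. The call for MDSC of both genotypes (adjusted p = 0.00266) and its bound of 1.63-fold also average WT signals at background. Between WT MDSC and ESC, both at background, no bound can be given for Mmp8.

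The stromelysins Mmp3 and Mmp10 were not called. Mmp3, which cuts proteoglycans and activates other MMPs, had levels of 2.12 and 3.98 in Mstn-null MDSC, 2.00 and -0.07 in WT MDSC, and 2.86 and -4.18 in ESC. ESC replicate 1 lay above 3 of the 4 MDSC arrays and ESC replicate 2 far below all of them. The difference was 2.67 ± 2.07 (adjusted p = 0.309), became 6.18 (adjusted p = 0.0212) without ESC replicate 1, and turned to -0.85 (adjusted p = 0.568) without ESC replicate 2. Mmp10 read -5.10 and -2.60 in Mstn-null MDSC, -1.97 and -3.80 in WT MDSC, and -2.53 and -4.11 in ESC, and all groups overlapped.

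**Figure D3:**
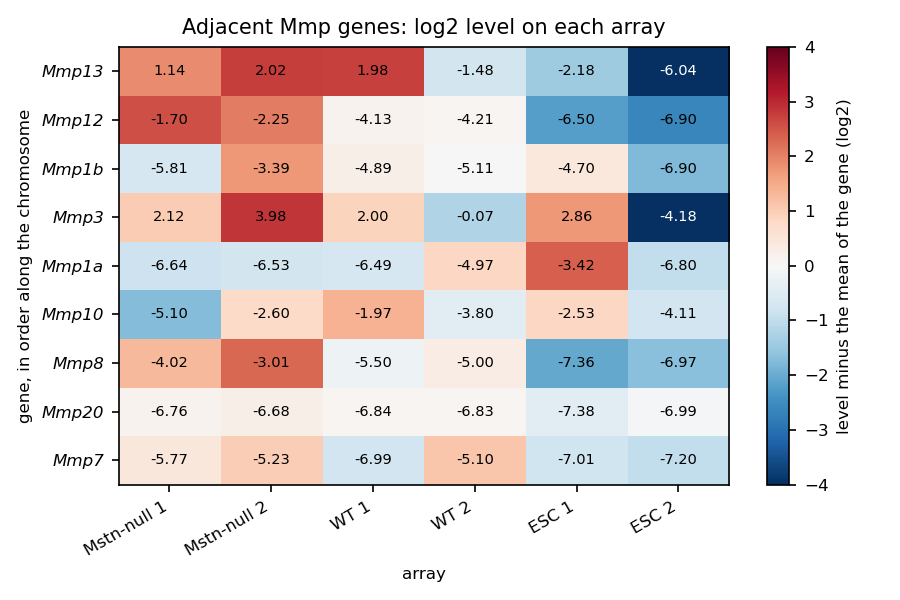
The 9 neighbouring Mmp genes that have a probe, in chromosomal order from top to bottom, on the 6 arrays; numbers are log2 levels and colours show the level minus the mean of the same gene over the arrays. Mmp13 and Mmp3 are lowest on ESC replicate 2, and Mmp12 and Mmp8 are highest on the Mstn-null arrays.

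The procollagen N-proteinase Adamts2, which trims fibrillar procollagens, was higher in MDSC. It read 6.23 and 5.49 in Mstn-null MDSC, 5.16 and 4.20 in WT MDSC, and 0.26 and -2.35 in ESC. The groups did not overlap, and MDSC were higher than ESC by 6.32 ± 0.80 (adjusted p = 0.00269). Without ESC replicate 1 the value was 7.62, and without ESC replicate 2 it was 5.01. A separate Adamts2 probe gave 5.07. Adamts14, a close relative with the same known activity, was not called and was at similar levels in all groups, with 0.95 and 1.60 in Mstn-null MDSC, 2.13 and 1.34 in WT MDSC, and 2.18 and 1.28 in ESC (-0.23 ± 0.39, adjusted p = 0.641). The probe of the third such enzyme, Adamts3, never rose well above background.

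The proteoglycan-cutting members Adamts1, Adamts4 and Adamts5 were all higher in MDSC. Adamts5, a main aggrecanase of mouse cartilage, read 1.19 and 1.75 in Mstn-null MDSC, 0.50 and -0.26 in WT MDSC, and -4.86 and -5.07 in ESC. All MDSC arrays were far above ESC, by 5.76 ± 0.29 (adjusted p = 0.000285). In ESC this probe was well above background on 1 array only. A separate Adamts5 probe, not well above background in ESC, was also called higher in MDSC (adjusted p = 0.00101). Adamts1, an aggrecan- and versican-cutting enzyme, read 3.12 and 4.35 in Mstn-null MDSC, 3.87 and 2.21 in WT MDSC, and 0.86 and -0.71 in ESC (3.32 ± 0.72, adjusted p = 0.0138). Adamts4, the other classical aggrecanase, read 1.11 and 1.20 in Mstn-null MDSC, 1.59 and 0.20 in WT MDSC, and -1.04 and -0.55 in ESC (1.82 ± 0.42, adjusted p = 0.0172). The genotypes overlapped for Adamts1 and Adamts4. Leaving out ESC replicate 2 ended both calls (adjusted p = 0.0794 and 0.0552), and leaving out ESC replicate 1 also ended that of Adamts4 (adjusted p = 0.0966). For Adamts1, leaving out ESC replicate 1 gave 4.10 and leaving out ESC replicate 2 gave 2.53.

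Further members of that group did not pass. Adamts9 differed by 0.74 ± 0.33 (adjusted p = 0.109) and Adamts15 by -0.64 ± 0.87 (adjusted p = 0.551). Adamts8 had probes that disagreed. Its brighter probe differed by 0.49 ± 0.19 (adjusted p = 0.073), with no overlap between MDSC and ESC. The other probe was well above background in ESC alone and was at least 7.46-fold lower in MDSC (adjusted p = 0.00545).

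Adamts7 and Adamts12, which are known to cut cartilage oligomeric matrix protein, were higher in MDSC. Adamts7 read -0.85 and -0.98 in Mstn-null MDSC, -0.97 and -1.38 in WT MDSC, and -2.95 and -2.09 in ESC (1.48 ± 0.29, adjusted p = 0.0105). Adamts12 read -2.43 and -1.97 in Mstn-null MDSC, -2.63 and -3.33 in WT MDSC, and -5.82 and -5.76 in ESC. It was not well above background in ESC and was at least 5.66-fold higher in MDSC (adjusted p = 0.000864). Adamts10, a protease tied to fibrillin microfibrils, had levels of -1.82 and -1.98 in Mstn-null MDSC, -2.07 and -2.05 in WT MDSC, and -3.57 and -4.25 in ESC. Its MDSC arrays lay within 0.26 of each other, and MDSC were higher by 1.93 ± 0.23 (adjusted p = 0.00231).

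Adamts6, a relative of Adamts10, read -3.39 and -2.64 in Mstn-null MDSC, -2.59 and -4.89 in WT MDSC, and -7.24 and -6.86 in ESC. MDSC were at least 3.28-fold higher (adjusted p = 0.00845), and leaving out ESC replicate 1 ended the call (adjusted p = 0.0544). Adamts18 read -4.19 and -4.02 in Mstn-null MDSC, -3.61 and -3.60 in WT MDSC, and -4.50 and -4.62 in ESC (0.70 ± 0.14, adjusted p = 0.0102). Both WT arrays were above all others for Adamts18, as they were for Adamts17. Adamts17, also linked to microfibrils, read -3.94 and -4.10 in Mstn-null MDSC, -3.26 and -2.80 in WT MDSC, and -4.64 and -4.53 in ESC (1.06 ± 0.19, adjusted p = 0.00728). Its other probe was well above background in ESC alone and was at least 1.37-fold lower in MDSC (adjusted p = 0.00222). Adamts17 was the only member with probes called in opposite directions, so its direction is not settled. On slide 2 alone, which leaves out the WT arrays, neither Adamts17 nor Adamts18 passed (adjusted p = 0.0571 and 0.0975).

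Adamts19 was the only ADAMTS gene called lower in MDSC by its brightest probe. It read -6.78 and -6.71 in Mstn-null MDSC, -6.83 and -6.86 in WT MDSC, and -4.75 and -4.04 in ESC. It was well above background in ESC alone and at least 1.19-fold lower in MDSC (adjusted p = 0.00131). Adamts16, a related secreted protease, was not well above background in ESC and did not pass (1.12 ± 0.44, adjusted p = 0.0796).

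**Figure D4:**
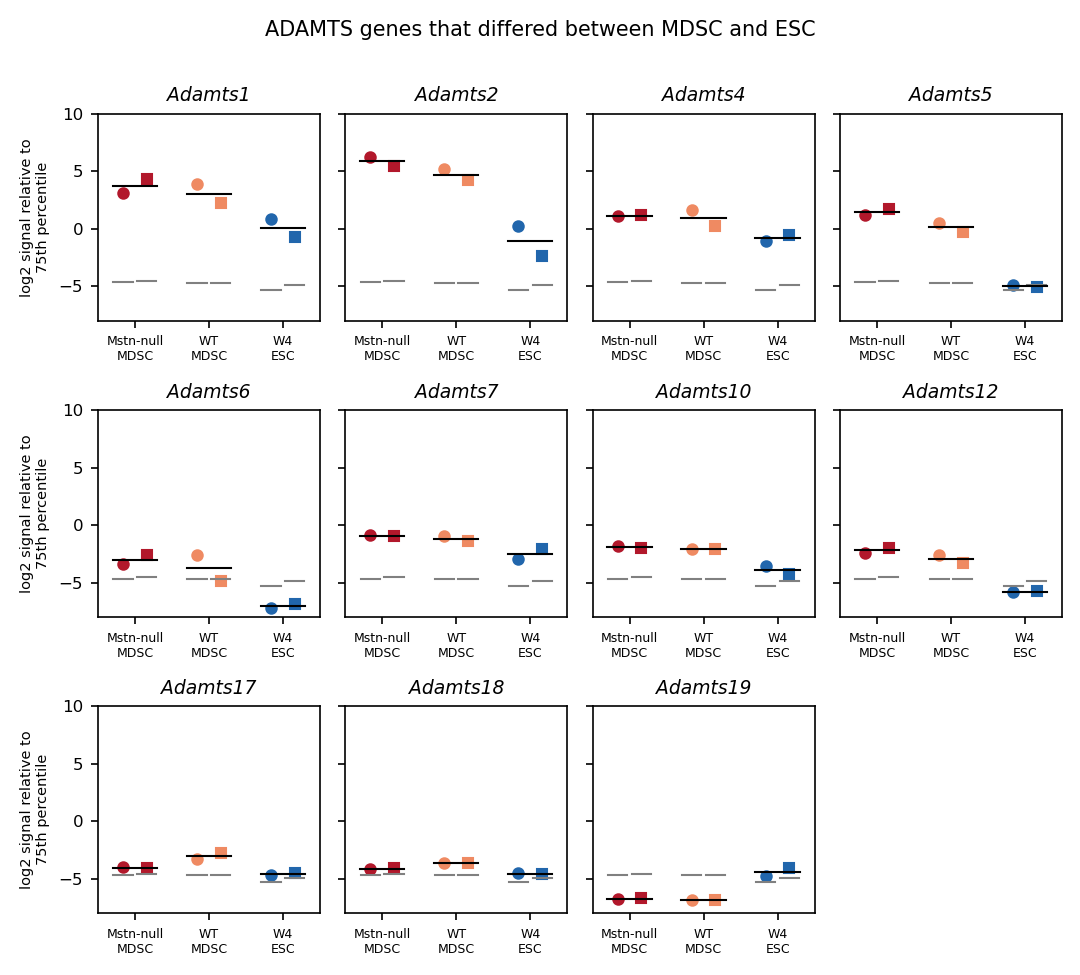
Log2 level of the 11 ADAMTS genes called in MDSC versus ESC on the Mstn-null, WT and ESC arrays; circles are replicate 1, squares replicate 2, black lines group means, and grey lines the lowest signal well above background on that array. Adamts2 and Adamts5 show the widest gaps to ESC, and Adamts19 lies above the grey lines in ESC alone.

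The 10 members with a probe that were not tested were Mmp1a, Mmp1b, Mmp7, Mmp16, Mmp20, Mmp21, Mmp28, Adamts3, Adamts13 and Adamts20. Mmp1a was well above background on ESC replicate 1 alone (-3.42, against -6.80 on ESC replicate 2). Mmp1b passed on Mstn-null replicate 2 (-3.39) and ESC replicate 1 (-4.70), and Mmp16 on Mstn-null replicate 2 (-3.15). The other 7, which include enamelysin (Mmp20) and the von Willebrand factor protease (Adamts13), passed on no array. A probe below background gives an upper limit on its signal and does not show that the gene is silent.

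Several members differed between the 2 ESC arrays. ESC replicate 1 was higher than ESC replicate 2 by more than 1 on the log2 scale in 7 of 35 members, against 7.55% of all genes tested. These were Mmp3 (7.03), Mmp13 (3.86), Mmp19 (3.32), Adamts2 (2.62), Mmp10 (1.59), Adamts1 (1.56) and Timp2 (1.05). Mmp13 and Mmp19 were not well above background on ESC replicate 2, which limits the size of their gaps. Replicate 2 was the higher by more than 1 for Mmp9 (-2.30, replicate 1 minus replicate 2) and Adamts15 (-2.20), against 3.42% of all genes tested. Decorin (Dcn), a collagen-binding proteoglycan and fibroblast marker, read 2.96 on ESC replicate 1 and -2.05 on ESC replicate 2. Of the 10 fibroblast markers, 9 were also higher on ESC replicate 1 and Postn was lower (-1.06, against -0.31 on ESC replicate 2); their part in these differences was not tested. Other members called higher in MDSC were close on the 2 ESC arrays, among them Timp1 (4.50 and 4.43) and Mmp23 (-0.69 and -0.70). With 1 array per passage there is no test.

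WT replicate 1 was likewise higher than WT replicate 2 by more than 1 in 11 of 35 members, against 5.75% of all genes tested. Mmp13 (3.46), Adamts6 (2.30), Mmp3 (2.07) and Mmp15 (1.87) led them, and only Mmp9 (-1.15) was higher on WT replicate 2 by that much, against 4.83% of all genes tested. Adamts6 and Mmp15 were not well above background on WT replicate 2, which limits the size of their gaps. Marker means were higher on WT replicate 1 too: 2.98 against -0.42 on WT replicate 2 for muscle, 6.16 against 5.15 for fibroblast and 1.02 against -0.14 for macrophage markers. Their part in these differences was not tested. Between the Mstn-null arrays, 2 members were higher by more than 1 on replicate 1 and 5 on replicate 2, against 2.93% and 3.74% of all genes tested. Among the 5, Mmp10 differed by -2.49 and Mmp3 by -1.86 (replicate 1 minus replicate 2). Mmp10 was not well above background on Mstn-null replicate 1, which limits the size of its gap. The spread between replicates was thus unevenly shared: the 4 MDSC arrays spanned 4.05 for Mmp3, 3.50 for Mmp13 and 3.13 for Mmp10, but 0.23 for Mmp14 and 0.29 for Timp1.

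The second comparison asked whether these genes differed between Mstn-null and WT MDSC. No member was called in either direction, and neither was any of the 25055 genes and features tested (0%), with a smallest adjusted p of 0.0548. At an unadjusted p below 0.05 there were 8 of 35 members, against 14.7% of all genes. Arrays of the genotypes did not overlap for 12 members higher in Mstn-null MDSC and 4 lower, against 16.6% and 34.8% of all genes tested. The 12 include Mmp25 and Adamts19, which were well above background on no MDSC array. They were tested because of their signal in ESC, so their gap lies within background. The median difference, Mstn-null minus WT, was 0.26 over the members and -0.12 over all genes. With 2 arrays a group, a p above the threshold does not show that the genotypes were alike.

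Timp3 had the smallest adjusted p of the members, 0.0665, with levels higher by 1.56 ± 0.17 (2.95-fold) in Mstn-null MDSC and no overlap. Mmp12 followed, higher by 2.20 ± 0.26 (4.58-fold, adjusted p = 0.0685). Mmp8 was at least 2.27-fold higher on the Mstn-null arrays (adjusted p = 0.159), and Adamts5 was higher by 1.35 ± 0.34 (adjusted p = 0.178). Adamts12 differed by 0.78 ± 0.30 (adjusted p = 0.336). In the other direction, Adamts17 differed by -0.99 ± 0.22 (adjusted p = 0.145), Adamts18 by -0.51 ± 0.16 (adjusted p = 0.253) and Mmp24 by -0.40 ± 0.15 (adjusted p = 0.322). Timp1, Timp2 and Timp4 differed by 0.22 ± 0.15, -0.06 ± 0.39 and 0.26 ± 0.45. None of these values passed the threshold.

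The mean of the macrophage markers was higher on the Mstn-null than on the WT arrays, as were Mmp12, Mmp8, Timp3 and Adamts5. The mean level of the 9 macrophage markers with a probe, of 10 listed, was 2.63 and 4.35 in Mstn-null MDSC, 1.02 and -0.14 in WT MDSC, and -3.14 and -2.58 in ESC. All 9 were well above background on every MDSC array, and 5 and 8 of them on the ESC arrays. Their median difference, Mstn-null minus WT, was 3.57, with 0 of 9 called, and Itgam alone had a difference below zero (-0.21). Mmp12 was the higher on Mstn-null replicate 1, whereas the marker mean was the higher on Mstn-null replicate 2. Between the WT arrays the marker mean fell from replicate 1 to replicate 2, whereas Mmp8 rose (-5.50 and -5.00) and Timp3 was level (4.86 and 4.85). Adamts5 ranked the MDSC arrays in the same order as the marker mean (1.19 and 1.75 in Mstn-null, 0.50 and -0.26 in WT MDSC). The mean of 6 neutrophil markers was -1.27 and -2.61 in Mstn-null MDSC, -2.84 and -3.03 in WT MDSC, and -4.50 and -4.71 in ESC. Of the 6, Elane and Camp were well above background on all 6 arrays and S100a8 on all 4 MDSC arrays, whereas Ltf never was and S100a9 only on Mstn-null replicate 1. Elane and Camp were called higher in MDSC than in ESC, by 0.88 and 4.65. The part of these cells in the results for Mmp12, Mmp8, Timp3 and Adamts5 was not tested.

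**Figure D5:**
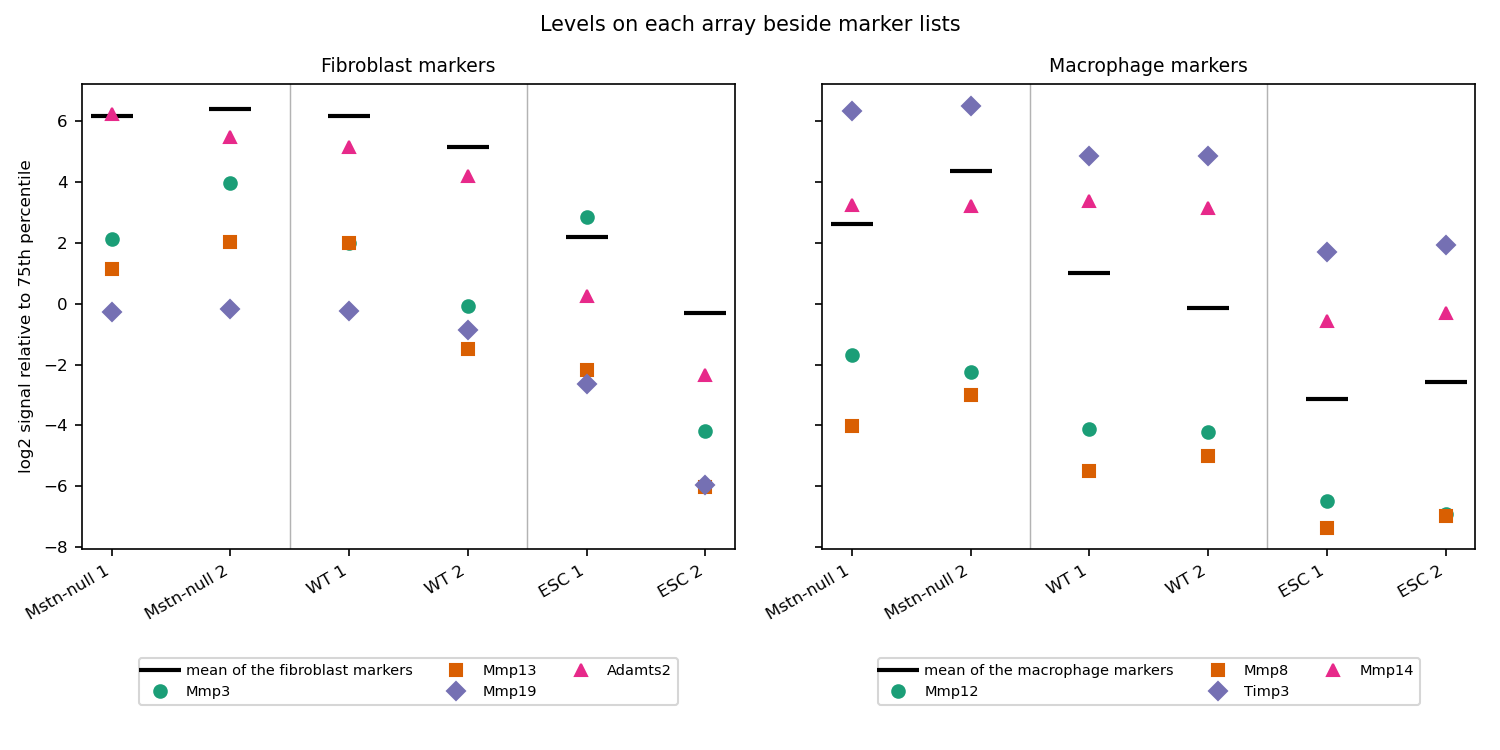
Log2 levels on each of the 6 arrays, with the mean of 10 fibroblast markers (left) and of 9 macrophage markers (right) as black bars and named members as points; a gene is to be read along its own points only. Mmp3, Mmp13, Mmp19 and Adamts2 are lower on ESC replicate 2 than on ESC replicate 1, as is the mean of the fibroblast markers, and Mmp12, Mmp8 and Timp3 are higher on the Mstn-null than on the WT arrays, as is the mean of the macrophage markers, while Mmp14 is level across MDSC.

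Each genotype was also set against ESC. These comparisons share the ESC arrays and are given side by side. Mstn-null MDSC were higher than ESC in 19 of 35 members and lower in 2, against 23.3% and 30.8% of all genes tested, and WT MDSC were higher in 20 and lower in 2, against 27.1% and 25.9%. The WT count includes Mmp8, which was not well above background in either WT MDSC or ESC and was tested because of its signal in Mstn-null MDSC. Timp3 differed from ESC by 4.60 in Mstn-null and 3.04 in WT MDSC, and Adamts5 by 6.44 and 5.08. Mmp12 was at least 8.66-fold higher than in ESC in Mstn-null and at least 1.89-fold higher in WT MDSC. For Mmp14 the values were 3.65 in Mstn-null and 3.69 in WT MDSC, for Timp1 3.85 and 3.63, and for Mmp23 4.60 and 4.49. Slide separated the groups fully in WT MDSC versus ESC. The comparison of Mstn-null MDSC with ESC used arrays of 1 slide only, so that slide did not separate the groups there. Its count of higher members fell without Mstn-null replicate 2, which leaves 1 Mstn-null array, and so did the count over all genes tested.

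Genes around these enzymes were read from 4 lists. In the list of proprotein convertases and the plasminogen system, which activate MMP precursors, 8 of 10 tested genes were higher in MDSC than in ESC and 0 lower, against 28.3% and 31.4% of all genes tested. The median difference was 2.31, against -0.03 over all genes tested. Plau, the urokinase that generates plasmin, was higher by 4.61 ± 0.41 (adjusted p = 0.00104). Pcsk5, a convertase, was at least 58.5-fold higher in MDSC (adjusted p = 0.00254), as it was not well above background in ESC. Plat, the tissue plasminogen activator, was higher by 2.94 ± 0.39 (adjusted p = 0.00299).

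In the list of other regulators, receptors and clearance, 10 of 12 tested genes were higher in MDSC and 1 lower, against 28.3% and 31.4% of all genes tested, with a median of 2.71. Lrp1, a receptor that clears MMPs and TIMPs from outside the cell, was higher by 4.07 ± 0.53 (adjusted p = 0.00299). Tfpi2, a serine protease inhibitor, was at least 10.8-fold higher (adjusted p = 0.00425). Tnf, an inflammatory cytokine known to induce MMPs, was at least 28.2-fold higher (adjusted p = 0.0197), and its levels of 0.68 and 3.19 in Mstn-null and -0.68 and -4.29 in WT MDSC were widely spread. Spock2, a matrix proteoglycan, was lower in MDSC, with a difference of -2.04 ± 0.53 (adjusted p = 0.0244).

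All 12 tested genes of the list of ADAM proteases and ADAMTS-like proteins were higher in MDSC of both genotypes together, against 28.3% of all genes tested, with a median of 2.50. Taken by genotype, 11 were called higher than ESC in Mstn-null and 9 in WT MDSC, against 23.3% and 27.1% of all genes tested. Adam9, a membrane-bound shedding protease, was higher by 3.03 ± 0.22 (adjusted p = 0.000664) and Adamtsl4, a microfibril protein without protease activity, by 2.93 ± 0.48 (adjusted p = 0.0056). Adamtsl2 was at least 1.91-fold higher than in ESC (adjusted p = 0.00181) and was well above background on both WT arrays but neither Mstn-null array. Adamtsl3 was at least 3.7-fold higher than in ESC (adjusted p = 0.00398). Among matrix substrates, 14 of 20 were higher in MDSC and 2 lower, against 28.3% and 31.4% of all genes tested, with a median of 3.37. Comp, the substrate named above for Adamts7 and Adamts12, was higher by 7.24 ± 0.71 (adjusted p = 0.00133), and Dcn by 6.68 ± 1.48 (adjusted p = 0.0146). Ncan, a proteoglycan of the nervous system, was at least 5.82-fold lower in MDSC (adjusted p = 0.00322), and Vwf, the substrate of Adamts13, differed by -1.92 ± 0.39 (adjusted p = 0.0109). In all 4 lists, 0 genes were called between Mstn-null and WT MDSC.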

How the data were processed

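The authors hybridised Cy3-labelled RNA of 6 cultures to 1-colour Agilent arrays, per the labels' protocols. Spots were read with Agilent Feature Extraction: the file headers give version 10.7.1.1, the submitters' processing notes 9.1. Per the file headers, the deposited intensity was background corrected but not scaled between arrays, and the design used build mm9.

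The values computed here were log2 processed intensity minus the array's 75th percentile (550 to 647 intensity units). Spots with an outlier flag (100 to 122 per array) were left out, and 23 of 55681 probes then lacked a value. Symbols came from accessions matched to a RefSeq table of GRCm38.p6 (26404 probes with 1 symbol). Promoters and their coordinates are RefSeq's in that assembly. For each gene the probe with the highest overall mean was used. Genes had to be well above background on both arrays of a group to be tested (25055 of 37153 genes and features).

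limma 3.58.1 (R 4.3.3) fitted the 3 groups together (two-sided, 3 residual and 2.02 prior degrees of freedom), adjusted over all genes tested. MDSC means the mean of both genotypes. An exact permutation test of 2 against 2 arrays cannot give a p below 0.333. Steps were tested on simulated data. TIMP genes and called members are given in full, and listed genes by counts with up to 4 examples of the largest differences or bounds. The values of 1 listed gene are not reported here. The members and lists were chosen with earlier results of these data known. Alternatives were other normalizations, background correction, filters, probe rules, fits and leaving out arrays.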

Additional observations from a re-analysis of the deposited data

How the results depend on the processing

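The count of members higher in MDSC than in ESC, 21, was 13 of 21 tested where every array had to be well above background and 19 on slide 2 alone. Over all genes, that stricter filter called 6149 of 19852 higher and slide 2 alone 5601 of 25055. Leaving out 1 array moved the member count either way, while the count over all genes tested fell. The lower count, 2, became 0 with the stricter filter, which tests fewer genes, and 4 with the mean over a gene's probes. Over all genes, the stricter filter called 6094 of 19852 lower and the mean over probes 7995 of 25089. That mean turned Adamts8 to -1.64 (adjusted p = 0.0141) and Adamts17 to -0.70 (adjusted p = 0.0334), as their probes disagree. Slide 2 holds no WT array, so every result on slide 2 alone is Mstn-null MDSC versus ESC and also differs by the absence of WT MDSC. For Mstn-null MDSC versus ESC, the stricter filter gave 12 higher and 0 lower, against 5192 and 5992 of 19852 over all genes. The mean over probes gave 4 lower, against 7875 of 25089. Leaving out any 1 Mstn-null or ESC array lowered the count of higher members and also the count over all genes. For WT MDSC versus ESC, the lower count was 1 with normexp (offset 50) and 0 with the stricter filter, against 6505 of 25052 and 5066 of 19852 over all genes.

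No member was called between Mstn-null and WT MDSC under any alternative run. With the isolation number as a replicate block 0 members were called. Deviations of same-numbered isolations correlated at -0.4 over genes, so the numbers were not taken as pairs, and the crossed replicate block, added after the data were seen, also gave 0. Over all genes, quantile normalization called 11 higher and 14 lower, and testing every probe on its own 2 and 2.

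Uncalled differences turned sign in some settings, and the cause was not tested. Mmp10 was 0.05, 0.10 and 0.15 with quantile normalization, median centring and normexp, and -0.84 to 0.75 without 1 array. Leaving out 1 array also moved Adamts14 between -0.67 and 0.22, Adamts15 between -1.74 and 0.46, Mmp17 between -0.44 and 0.15, Mmp3 between -0.85 and 6.18, and Mmp9 between -0.44 and 1.85. Mmp24 was -0.09 on slide 2 alone. Between genotypes, Timp2 was 0.04 with quantile normalization, 0.10 with median centring and -0.24 to 0.13 without 1 array. Timp4 was -0.01 with normexp and -0.32 to 0.83 without 1 array.

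Of the 23 calls in MDSC versus ESC, Mmp11 was lost in 5 settings, Mmp13 in 4, Mmp19 and Adamts4 in 2 each, and Adamts1, Adamts6, Adamts17 and Adamts18 in 1 each. Mmp15 passed as lower on slide 2 alone (adjusted p = 0.0245) and without WT replicate 1 (adjusted p = 0.0146). Adamts16 passed as higher on slide 2 alone (adjusted p = 0.00982) and without WT replicate 2 (adjusted p = 0.0103), and Adamts8 without ESC replicate 2 (adjusted p = 0.0392). Median centring shifted all genes by 0.14 in MDSC versus ESC and by 0.16 between genotypes, and gave 7165 higher and 6189 lower calls over all genes, against 7086 and 7858. Quantile normalization gave 7759 higher and 7400 lower. Signals near background limit Mmp8, Mmp12, Mmp25, Adamts6, Adamts12 and Adamts19, for which bounds are given. They also limit Mmp13, Mmp19, Adamts5 and Adamts18, which were well above background on only 1 ESC array and are given as fitted differences. Normexp made dim differences smaller, to 0.72 for Mmp8, 1.00 for Adamts6, -0.45 for Adamts19, 0.47 for Adamts17, 1.08 for Adamts10, 2.18 for Mmp19, 3.40 for Mmp13 and 3.80 for Adamts5, all still called.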
